A study of Homo sapiens with 6 samples.

Results

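The snoRNA host transcripts are genes named SNHG (small nucleolar RNA host gene) or known to carry small nucleolar RNAs under another name. They were chosen by symbol: each gene named SNHG with a number, and GAS5, ZFAS1, LRRC75A-AS1, C6orf48, EPB41L4A-AS1 and DANCR. The rule found 31 rows of 58735 in the deposited count table, with 30 symbols, since SNHG28 stands in it under 2 identifiers. The table classes 29 of the 31 as non-coding, the exceptions being C6orf48 and 1 SNHG28 row. The rule also names the contrast read here, and the fall of SNHG1 was known before the members were listed, so the tests below are a description of the members.

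The libraries came from A549, an established human lung adenocarcinoma line. There were 3 OE_GPX3 libraries, from cells with the genotype OE (overexpression), and 3 Vector libraries, from cells with the genotype WT. GPX3 is a secreted glutathione peroxidase that reduces peroxides. The labels give no promoter, no clone or pool, no time after transfer of the construct and no treatment beyond the genotype. They do not name separate cultures for the replicates, and the p-values therefore rest on the spread among these 6 libraries, which may be technical.

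Small nucleolar RNAs (snoRNAs) guide chemical modification of ribosomal and spliceosomal RNA: those with boxes C and D guide ribose methylation, those with boxes H and ACA guide conversion of uridine to pseudouridine. In vertebrates most are cut out of introns, so a host gene makes a spliced transcript and its guide RNAs from the same precursor. Many spliced host transcripts begin with a run of pyrimidines at the 5′ end, as messages for ribosomal proteins do, and are broken down by nonsense-mediated decay when ribosomes meet an early stop codon. GAS5 was named for its rise in growth-arrested cells, and raised SNHG1 has been described in many tumours.

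SNHG1 is the member on which the comparison turns, and its guides are box C/D RNAs. Those of SNHG8, SNHG15 and SNHG7 are box H/ACA RNAs. Example guides are printed for these 4 hosts, from the transcripts of GENCODE release 29 on GRCh38, each from 5′ to 3′ on the strand of its gene. Capitals mark box C (TGATGA) and box D (CTGA) in the first 3, which lie within SNHG1, and the ACA that ends 3 bases before the 3′ end in the others. SNORD25 lies at chr11:62855564-62855632 on the minus strand, SNORD27 at chr11:62855012-62855083 and SNORD30 at chr11:62853663-62853732, on the same strand. SNORA24 in SNHG8 lies at chr4:118279190-118279320 on the plus strand, SNORA9 in SNHG15 at chr7:44985378-44985510 on the minus strand and SNORA17A in SNHG7 at chr9:136726747-136726879 on the minus strand.
SNORD25: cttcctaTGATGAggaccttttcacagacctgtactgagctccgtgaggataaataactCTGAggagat
SNORD27: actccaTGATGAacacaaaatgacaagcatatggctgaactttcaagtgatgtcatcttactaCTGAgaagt
SNORD30: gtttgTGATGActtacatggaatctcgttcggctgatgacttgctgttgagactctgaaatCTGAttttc
SNORA24: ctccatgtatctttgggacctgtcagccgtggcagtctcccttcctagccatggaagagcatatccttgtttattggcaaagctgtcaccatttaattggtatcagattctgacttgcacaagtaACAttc
SNORA9: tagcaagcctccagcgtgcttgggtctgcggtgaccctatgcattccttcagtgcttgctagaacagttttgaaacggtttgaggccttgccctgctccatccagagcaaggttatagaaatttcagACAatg
SNORA17A: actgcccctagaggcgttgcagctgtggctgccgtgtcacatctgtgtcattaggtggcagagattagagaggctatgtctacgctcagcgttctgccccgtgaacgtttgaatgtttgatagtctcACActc

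The promoters differed in whether they held the string TATAA near the start. RefSeq promoters (GRCh38.p14, from 250 bases before to 50 bases after the start) were matched for 26 of the 30 symbols. TATAA, read on the strand of the gene between 40 and 16 bases before the start, was found in 6 of these 26 (23.1%), against 1372 of 35116 promoters in all (3.91%). The 6 were SNHG5, SNHG7, SNHG8, SNHG12, SNHG19 and ZFAS1. SNHG1 and GAS5 had none in that window. The stretch from 45 bases before to 15 bases after the start is printed for SNHG1 and GAS5, and for SNHG8, SNHG5 and ZFAS1 with TATAA in capitals. These lie at chr11:62855871-62855930 (SNHG1, minus strand), chr1:173869031-173869090 (GAS5, minus), chr4:118278717-118278776 (SNHG8, plus), chr6:85678719-85678778 (SNHG5, minus) and chr20:49278597-49278656 (ZFAS1, plus).
SNHG1: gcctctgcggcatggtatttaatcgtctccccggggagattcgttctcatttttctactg
GAS5: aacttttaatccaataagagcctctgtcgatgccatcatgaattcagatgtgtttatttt
SNHG8: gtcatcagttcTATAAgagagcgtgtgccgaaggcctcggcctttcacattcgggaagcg
SNHG5: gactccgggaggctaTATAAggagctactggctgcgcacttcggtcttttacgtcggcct
ZFAS1: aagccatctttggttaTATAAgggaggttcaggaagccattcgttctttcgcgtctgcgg

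Over the whole 300-base promoter and on both strands, GGGCGG was found in 69.2% of the 26 member promoters and 45% of all promoters. CCAAT was found in 26.9% of the members and 34.6% of all, and CACGTG in 3.85% and 7.26%. TTGCATCA was in 0 of the 26 and in 0.866% of all promoters. The longest run of C or T around the start had a median of 6 bases in the members (range 2 to 22) and of 4 bases in all promoters. For each member 1 RefSeq start was taken, which may not be the one used in A549 cells. For GAS5 that start lies 163 bases before the GENCODE release 29 start, so the printed GAS5 stretch is outside the counted gene. The starts differ by 464 bases for ZFAS1, 1259 for SNHG12 and 154975 for SNHG14. For SNHG5, SNHG1 and SNHG8 they differ by 15, 29 and 53 bases.

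In GENCODE release 29, 142 snoRNA or scaRNA genes (guides of the Cajal body) lie on the same strand within the rows of 28 of the 30 symbols, 84 of them in SNHG14, the imprinted host of the SNORD115 and SNORD116 arrays that runs antisense to UBE3A. SNHG1 holds 7 of them in its 3927 bases. SNHG17 and SNHG12 hold 5 each, and SNHG8, SNHG15, SNHG5 and DANCR 1 each. These are counts of annotated genes. Some guides stand under more than 1 identifier, such as SNORA16A in SNHG12 and SNORA17B in SNHG7, so distinct guides are fewer. The snoRNAs of GAS5 were not analysed here.

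The guides' own rows held few counts in these libraries, although the labels' protocol describes enrichment of small RNA. All 992 snoRNA and scaRNA rows of the table together had 1167 counts over the 6 libraries. The 142 guide genes together had 313 counts over the 6 libraries, against 157906 for the hosts. Per library they had 66, 53 and 58 counts in OE_GPX3 and 47, 47 and 42 in Vector. All 3 OE_GPX3 values lie above the 3 Vector values, at a depth too low to read single guides. SNORA73B in SNHG3, which takes part in processing of ribosomal RNA, had the most, with 9, 12 and 14 counts in OE_GPX3 and 11, 12 and 8 in Vector. SNORD104 in SNHG25 had 12, 14 and 8 counts in OE_GPX3 and 8, 9 and 8 in Vector. Neither of these guides separates the groups. SNORA71C in SNHG17, the next by counts, had 9, 8 and 11 counts in OE_GPX3 and 3, 5 and 1 in Vector, without overlap. It was named after its values were seen and was too low to be tested.

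The zeros were not spread evenly over the gene models. Of the 142 guide genes, 49 touch an annotated exon of their host when exons of all transcripts are merged, and 0 of these 49 had a count. The other 93 lie in introns, and 24 of them had a count. All 7 guides in SNHG1 belong to the first kind and were at 0, and the merged exons of SNHG1 cover 3756 of its 3927 bases (95.6%). Reads from such guides may have been counted for the host or dropped, and the sources used here do not give which. The zeros of guides that touch a host exon are therefore no measure of their level. Any such reads counted for the host, and reads from retained introns, cannot be told apart from reads of the spliced host. A count of 0 allows up to 3 counts, or 0.160 to 0.189 counts per 1e+06 counts, in these libraries, for counting error only. This bound does not cover guides that touch a host exon.

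SNHG1 stood in OE_GPX3 at 0.539 times its level in Vector and was the one host that passed the test. SNHG8, SNHG11, SNHG7, SNHG15 and GAS5 had lower means in OE_GPX3 without passing the test. LRRC75A-AS1, SNHG6, SNHG5 and ZFAS1, which are among the most abundant hosts, had nearly the same level in both groups.

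Totals ran from 15831693 to 17742307 counts in the OE_GPX3 libraries and from 16373203 to 18751815 in the Vector libraries. GPX3 itself had 1311, 1031 and 1361 CPM (counts per 1e+06 counts) in OE_GPX3 and 36.0, 33.8 and 39.6 CPM in Vector, as the labels say. The markers of A549 were present: KRT8 and NQO1, an epithelial keratin and a detoxifying enzyme high in this line, had at least 12557 and 1154 CPM in every library. Of 9 markers of leukocytes, endothelium and fibroblasts 1 passed the filter on low counts, COL1A1, with 3.07 to 6.73 CPM in OE_GPX3 and 3.78 to 4.12 CPM in Vector. In bulk RNA, fewer cells with a transcript and less of it per cell cannot be told apart.

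Host transcripts took a small share of the RNA. The 31 rows held 0.145% ± 0.00724 of all counts in OE_GPX3 and 0.158% ± 0.0105 in Vector (SD, n = 3 each). By library the shares were 0.140%, 0.154% and 0.143% in OE_GPX3 and 0.151%, 0.170% and 0.153% in Vector. The groups overlap, and Vector replicate 2 is the highest. LRRC75A-AS1, also called SNHG29, alone supplied 30.1% of the hosts' counts.

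Of the 31 rows, 24 had enough counts to be tested, among 14458 tested genes. The 7 others were low throughout. SNHG9 had 34 counts over the 6 libraries, SNHG25 had 21 and an SNHG28 row had 6. SNHG18, SNHG22, SNHG27 and the other SNHG28 row were at 0 in all 6, which allows up to 3 counts per library. Of the 24, 20 averaged at least 5 CPM and are given by name. The other 4, SNHG19, SNHG10, SNHG21 and SNHG26, averaged less.

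Levels between hosts are compared per gene length, as the authors' FPKM (fragments scaled to gene length and library size), in order from high to low. LRRC75A-AS1 had 126 ± 15.7 FPKM in OE_GPX3 and 117 ± 3.48 in Vector (SD, n = 3 each, as for the other FPKM below). SNHG6 had 73.8 ± 9.96 FPKM in OE_GPX3 and 74.8 ± 3.54 in Vector, and SNHG5 had 53.9 ± 6.62 in OE_GPX3 and 54.9 ± 3.67 in Vector. These 3 keep their order in both groups. ZFAS1, named for its antisense place at ZNFX1, had 52.7 ± 7.26 FPKM in OE_GPX3 and 52.3 ± 1.79 in Vector. SNHG5, ZFAS1 and SNHG8 lie within the spread of their replicates in Vector, where SNHG8 had 56.5 ± 8.23 FPKM, whereas in OE_GPX3 SNHG8 had 44.1 ± 3.84. GAS5 had 34.2 ± 1.36 FPKM in OE_GPX3 and 37.3 ± 3.12 in Vector, and C6orf48, also called SNHG32, had 29.1 ± 4.65 in OE_GPX3 and 28.9 ± 2.53 in Vector.

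A middle band followed. SNHG7, SNHG17 and SNHG16 ran from 14.0 to 18.8 mean FPKM in OE_GPX3 and from 14.8 to 20.2 in Vector. SNHG1 had 7.85 ± 0.700 FPKM in OE_GPX3 and 14.4 ± 3.77 in Vector (SD, n = 3 each). In Vector it stood beside SNHG16, at 14.8 ± 0.986 FPKM, and above DANCR, at 11.7 ± 0.636. In OE_GPX3 it stood below DANCR, at 11.4 ± 0.776 FPKM, and EPB41L4A-AS1, at 9.94 ± 0.245. The lowest named hosts were SNHG12, SNHG20 and SNHG14, at 0.666 to 1.52 mean FPKM in OE_GPX3 and 0.618 to 1.64 in Vector. The SNHG14 row counts 43324 bases of merged exon, so its FPKM averages over many transcripts.

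**Figure D1:**
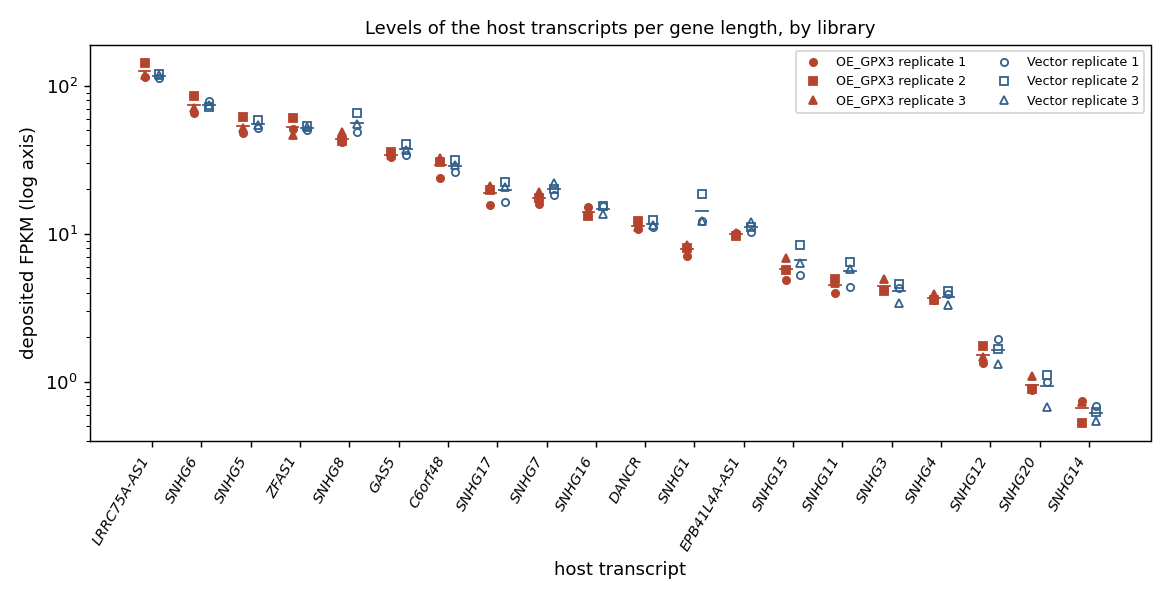
Deposited FPKM of the 20 named host transcripts in each library, on a log axis, with OE_GPX3 (filled red) left of Vector (open blue) for each host, a symbol per replicate and a line at each mean. LRRC75A-AS1 is at the top with means of 126 FPKM in OE_GPX3 and 117 in Vector, and SNHG1 is the host whose groups lie farthest apart, at 7.85 FPKM in OE_GPX3 and 14.4 in Vector.

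SNHG1 (chr11:62851988-62855914, minus strand, hg38) fell in OE_GPX3. It had 477, 512 and 485 counts in OE_GPX3 and 824, 1384 and 755 in Vector, or 26.8, 30.2 and 31.5 CPM in OE_GPX3 and 46.5, 71.2 and 46.2 CPM in Vector. The groups do not overlap, and Vector replicate 2 stands well above the other Vector libraries, which lie within 1 CPM of each other. The log2 fold change was -0.89 with SE 0.14 and a 95% interval of -1.18 to -0.61, with an adjusted p of 0.00225 (edgeR's quasi-likelihood test, Benjamini-Hochberg adjustment over all tested genes). It was the 1 member called in either direction. Of all tested genes, 0.263% were called in either direction and 0.166% were called as lower. Nothing is read from the members' share, since the rule names this contrast.

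The call depended on which libraries were kept. Without Vector replicate 2 the log2 fold change was -0.65 (adjusted p = 0.0829, edgeR), and without OE_GPX3 replicate 2 it was -0.90 (adjusted p = 0.0761, edgeR). With a GC correction, chosen once the values were known, it was -0.76 (adjusted p = 0.12, edgeR); 43.1% of the bases of SNHG1 are G or C, against a median of 49.0% over tested genes. Over all tested genes, 4 were called without Vector replicate 2, 1 without OE_GPX3 replicate 2 and 4 with the GC correction. The setting reported called 38. For SNHG1 the direction was lower in all of the 16 alternative settings run, from -0.996 to -0.653, and 13 of them kept the adjusted p under 0.05.

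**Figure D2:**
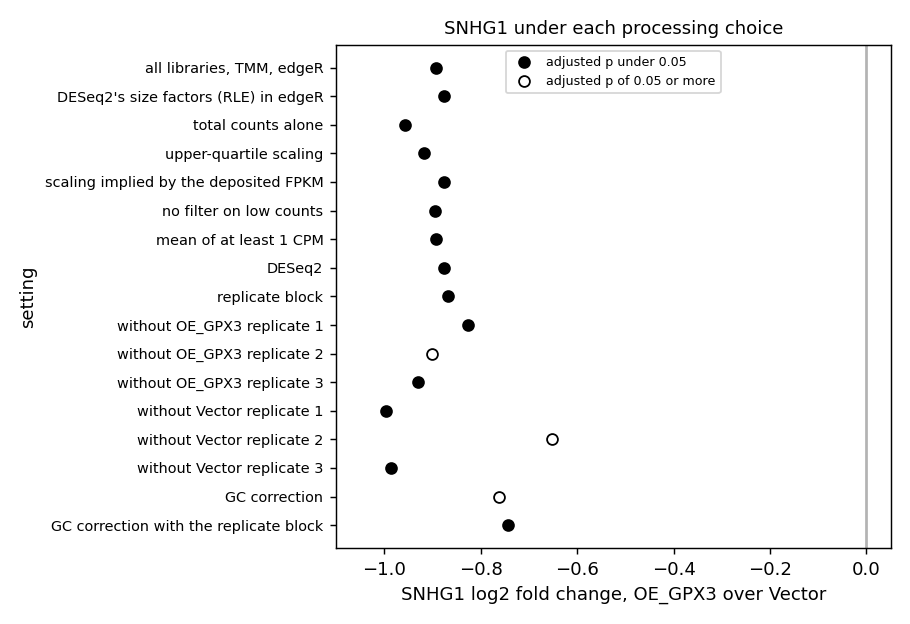
Log2 fold change of SNHG1, OE_GPX3 over Vector, under the setting reported and the 16 alternatives, with filled points where the adjusted p is under 0.05. All points lie from -0.996 to -0.653, and the 3 open ones leave out OE_GPX3 replicate 2, leave out Vector replicate 2 or correct for GC content.

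Most of the listed transcripts known as targets of nonsense-mediated decay were also high in Vector replicate 2. Many on the list are induced in the stress response run by ATF4. The 9 transcripts listed summed to 553, 674 and 754 CPM in OE_GPX3 and 670, 1003 and 827 CPM in Vector. A large part of each sum was ATF4, with 249, 321 and 361 CPM in OE_GPX3 and 298, 492 and 387 CPM in Vector. ATF4 did not pass the test (log2 fold change -0.34, adjusted p = 0.431, edgeR). Vector replicate 2 held the highest value for 7 of the 9, the exceptions being MAP3K14 and TBL2. MAP3K14 had a mean of 40.8 CPM in OE_GPX3 and 38.4 CPM in Vector. TBL2 had a mean of 80.6 CPM in OE_GPX3 and 73.7 CPM in Vector. Vector replicate 2 also held the highest value for 11 of the 24 tested hosts, while it was highest for 18.1% of all tested genes. Its SNHG1 was 0.61 above the other Vector libraries on the log2 CPM scale, that of SNHG15 0.52, SNHG20 0.38, SNHG11 0.33 and SNHG8 0.32. At the other end, OE_GPX3 replicate 1 held the lowest value for 11 of the 24 hosts, and for 15.5% of all tested genes. The part of these libraries in the difference was not tested beyond leaving them out.

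**Figure D3:**
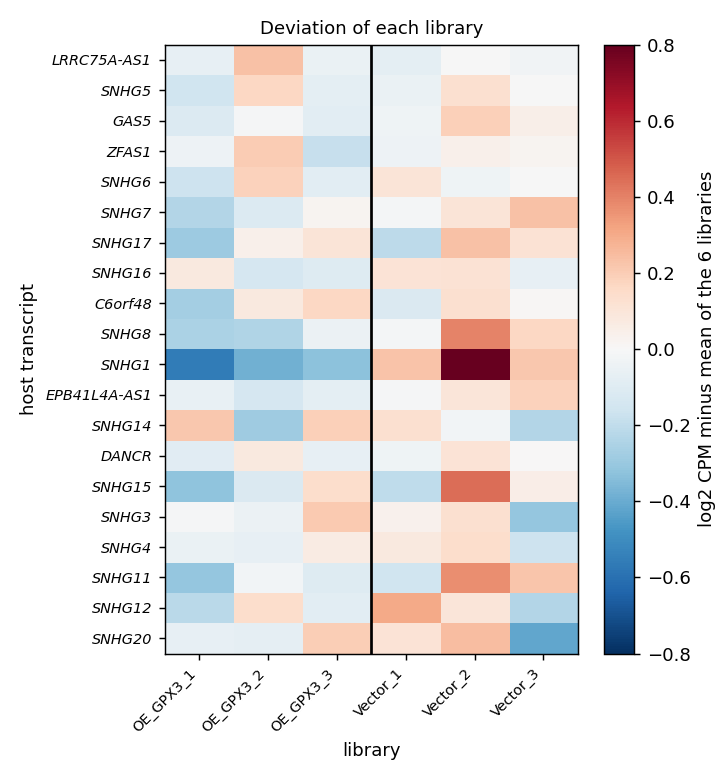
Deviation of each library from the mean of the 6 for the 20 named hosts, as log2 (CPM + 0.5), with OE_GPX3 libraries left of the line and Vector libraries right of it. SNHG1 is blue in the 3 OE_GPX3 libraries and darkest red in Vector replicate 2, where SNHG8, SNHG11 and SNHG15 are also high.

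SNHG1 starts 188 bases from SLC3A2, which runs the other way and encodes the heavy chain shared by several amino acid transporters. SLC3A2 had 815, 1004 and 1066 CPM in OE_GPX3 and 850, 1175 and 1086 CPM in Vector. The groups overlap, and its log2 fold change of -0.11 did not pass (SE 0.12, adjusted p = 0.682, edgeR). Apart from the 7 guides inside it, no gene shares exonic bases with SNHG1 in GENCODE release 29.

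SNHG8 (chr4:118278709-118279823, plus strand), host of SNORA24, had 38.6, 38.9 and 44.6 CPM in OE_GPX3 and 45.7, 60.8 and 51.7 CPM in Vector. Every OE_GPX3 value lies below every Vector value, by a narrow margin at the nearest pair. The log2 fold change was -0.38 (SE 0.12, interval -0.62 to -0.13) and did not pass over all genes (adjusted p = 0.156, edgeR). Over the alternatives it ran from -0.47 to -0.26, with adjusted p from 0.0629 to 0.727, the smallest size being that without Vector replicate 2.

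SNHG11 (chr20:38446578-38450921, plus strand), host of SNORA60 and SNORA71E, had 11.3, 13.9 and 13.1 CPM in OE_GPX3 and 12.6, 18.4 and 16.5 CPM in Vector. The lowest Vector library falls among the OE_GPX3 libraries. SNHG11 had a log2 fold change of -0.31 (SE 0.15, adjusted p = 0.34, edgeR), and of -0.19 without Vector replicate 2.

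SNHG15 (chr7:44983023-44986961, minus strand), a short-lived host of SNORA9, had 17.9, 20.8 and 24.9 CPM in OE_GPX3 and 19.5, 31.0 and 23.5 CPM in Vector. The groups overlap and Vector replicate 2 again stands above the rest. Its log2 fold change was -0.22 (SE 0.15, adjusted p = 0.507, edgeR). Without Vector replicate 2 it was -0.019.

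SNHG7 (chr9:136721366-136728184, minus strand), host of SNORA17A and SNORA17B, had 69.8, 76.1 and 83.2 CPM in OE_GPX3 and 81.2, 88.4 and 96.8 CPM in Vector. The groups overlap by 1 library on each side. Its log2 fold change of -0.22 (SE 0.11, adjusted p = 0.351, edgeR) passed under 1 alternative, the GC correction with the replicate number as a block, at -0.41 (adjusted p = 0.0274). FAM69B on the other strand shares 1094 exonic bases with SNHG7, and the sources used here do not give whether reads were counted by strand.

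EPB41L4A-AS1 (chr5:112160526-112164276, plus strand), host of SNORA13, had 34.0, 32.2 and 33.5 CPM in OE_GPX3 and 35.3, 37.9 and 40.3 CPM in Vector. The groups do not overlap, and the OE_GPX3 libraries lie closer together than those of any other named host, with a coefficient of variation of 2.75%. The log2 fold change of EPB41L4A-AS1, -0.19, did not pass (SE 0.12, adjusted p = 0.459, edgeR). EPB41L4A on the other strand shares 1659 exonic bases with EPB41L4A-AS1. It had 2517 counts over the 6 libraries, against 3690 for EPB41L4A-AS1, and whether reads were counted by strand is not known.

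GAS5 (chr1:173863900-173868882, minus strand), the best known host in growth arrest and a decoy of the glucocorticoid receptor, had 121, 129 and 123 CPM in OE_GPX3 and 127, 149 and 135 CPM in Vector. The lowest Vector library lies just below the highest OE_GPX3 library. Its log2 fold change of -0.14 (SE 0.10, interval -0.35 to 0.07) did not pass (adjusted p = 0.532, edgeR). The interval spans no change and a fall well short of that of SNHG1. Without Vector replicate 2 the value was -0.074, and with the GC correction -0.0044, or -0.0014 with the replicate block added. ZBTB37, a zinc finger gene that starts 800 bases from GAS5 on the other strand, had 2.13, 1.59 and 2.72 CPM in OE_GPX3 and 1.86, 2.52 and 1.28 CPM in Vector (log2 fold change 0.17, SE 0.31, adjusted p = 0.824, edgeR), without a stable sign when libraries were left out.

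**Figure D4:**
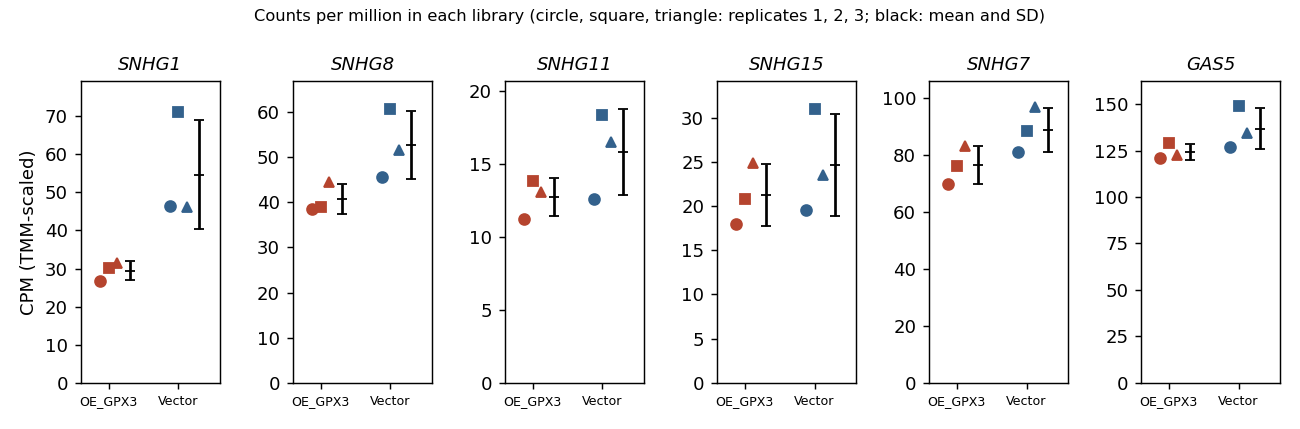
CPM, scaled between libraries by TMM, of SNHG1, SNHG8, SNHG11, SNHG15, SNHG7 and GAS5 in each library, with OE_GPX3 left of Vector in every panel and black bars for the mean and SD of 3 libraries. In the SNHG1 panel the OE_GPX3 libraries lie from 26.8 to 31.5 CPM and the Vector libraries from 46.2 to 71.2 CPM; in the GAS5 panel the groups overlap.

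Several abundant hosts differed by less than the spread of their libraries. LRRC75A-AS1, host of SNORD49A, SNORD49B and SNORD65, had 437, 539 and 441 CPM in OE_GPX3 and 434, 457 and 448 CPM in Vector. OE_GPX3 replicate 2 is the one high library, and the log2 fold change was 0.08 (SE 0.10, adjusted p = 0.739, edgeR). SNHG5, host of SNORD50B, had 137, 171 and 145 CPM in OE_GPX3 and 148, 167 and 153 CPM in Vector. ZFAS1, host of the SNORD12 group, had 115, 136 and 104 CPM in OE_GPX3 and 115, 122 and 120 CPM in Vector. In both the OE_GPX3 libraries spread around the Vector libraries, with OE_GPX3 replicate 2 the highest. ZNFX1, whose start lies 248 bases from that of ZFAS1 on the other strand, had 160.0, 119 and 149.7 CPM in OE_GPX3 and 164, 148 and 155 CPM in Vector (log2 fold change -0.12, adjusted p = 0.61, edgeR). ZNFX1 and ZFAS1 share 249 exonic bases.

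SNHG6, host of SNORD87, had 82.9, 106 and 87.5 CPM in OE_GPX3 and 99.8, 90.6 and 92.7 CPM in Vector. The log2 fold changes of SNHG5, SNHG6 and ZFAS1 were -0.04, -0.04 and -0.01 (adjusted p from 0.872 to 0.985, edgeR). SNHG5, SNHG6, ZFAS1, C6orf48, SNHG4, SNHG17, SNHG12, SNHG20, SNHG3 and LRRC75A-AS1 changed sign under at least 1 alternative, so these hosts have no direction to report.

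Hosts of middle level also overlapped between groups. SNHG17, host of the SNORA71 group, had 66.2, 83.3 and 87.2 CPM in OE_GPX3 and 70.1, 95.1 and 87.8 CPM in Vector. SNHG16, host of the SNORD1 group, had 82.0, 70.6 and 72.0 CPM in OE_GPX3 and 83.6, 84.0 and 73.9 CPM in Vector. Both overlap between groups, with a log2 fold change of -0.10 each (adjusted p = 0.724 and 0.667, edgeR). C6orf48, host of SNORD48 and SNORD52, had 43.3, 55.2 and 58.6 CPM in OE_GPX3 and 48.3, 57.2 and 52.7 CPM in Vector, where OE_GPX3 replicate 1 is low. DANCR, which restrains differentiation and hosts SNORA26, had 24.8, 27.9 and 25.2 CPM in OE_GPX3 and 25.8, 28.5 and 26.5 CPM in Vector. DANCR had a log2 fold change of -0.05 (SE 0.12, adjusted p = 0.869, edgeR).

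Of the hosts with lower counts, SNHG14 had 32.2, 22.7 and 31.7 CPM in OE_GPX3 and 30.4, 27.4 and 23.5 CPM in Vector. SNHG3, host of SNORA73A and SNORA73B, had 17.3, 16.8 and 20.2 CPM in OE_GPX3 and 17.8, 19.1 and 13.9 CPM in Vector. SNHG4, host of SNORA74A, had 16.1, 15.99 and 17.5 CPM in OE_GPX3 and 17.7, 18.5 and 14.9 CPM in Vector. In these 3 the OE_GPX3 and Vector libraries are interleaved, with log2 fold changes of 0.09, 0.09 and -0.05. RCC1 on the same strand shares 242 exonic bases with SNHG3, and had 11552 counts over the 6 libraries, against 1820 for SNHG3.

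SNHG12, host of SNORA16A, SNORA44, SNORA61 and SNORD99, had 5.72, 7.44 and 6.29 CPM in OE_GPX3 and 8.41, 7.20 and 5.62 CPM in Vector. SNHG20, host of SCARNA16, had 5.44, 5.43 and 6.62 CPM in OE_GPX3 and 6.21, 6.89 and 4.16 CPM in Vector. Both had wide intervals, -0.51 to 0.25 for SNHG12 and -0.39 to 0.41 for SNHG20 on the log2 scale, so a change as large as that of SNHG8 lies within them or at their edge.

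SNHG21 and SNHG10, the hosts of SCARNA15 and SCARNA13, were the members whose OE_GPX3 libraries all lay above the Vector libraries, at low levels. SNHG21 had 1.18, 1.65 and 1.23 CPM in OE_GPX3 and 1.02, 0.874 and 0.367 CPM in Vector, from 6 to 28 counts per library. Its log2 fold change was 0.83 (SE 0.40, adjusted p = 0.335, edgeR). SNHG10 had 2.64, 2.24 and 2.85 CPM in OE_GPX3 and 2.20, 2.21 and 1.71 CPM in Vector, with a log2 fold change of 0.33 (SE 0.27, adjusted p = 0.582, edgeR). GLRX5 on the other strand shares 391 exonic bases with SNHG10. SNHG19 and SNHG26 overlapped between groups, with log2 fold changes of 0.33 and -0.50 (adjusted p = 0.529 and 0.641, edgeR).

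Counted over the 24 tested hosts, 17 had a log2 fold change below 0 (70.8%, against 52.6% of all tested genes), and their median was -0.05, against -0.02 over all. Of 1080 other non-coding genes tested, 59.5% were below 0, and their median, -0.07, was lower than that of the hosts. The groups did not overlap for 3 hosts lower in OE_GPX3 (SNHG1, SNHG8 and EPB41L4A-AS1), where 9.9% of all tested genes did so, and for 2 higher (SNHG10 and SNHG21), where 8.62% did. At an unadjusted p under 0.05 there were 4, SNHG1, SNHG8 and SNHG11 lower and SNHG21 higher, against 14.6% of all tested genes in either direction and 7.76% lower. Apart from SNHG1, no host averaging at least 5 CPM had a log2 fold change larger than 0.38 in size.

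**Figure D5:**
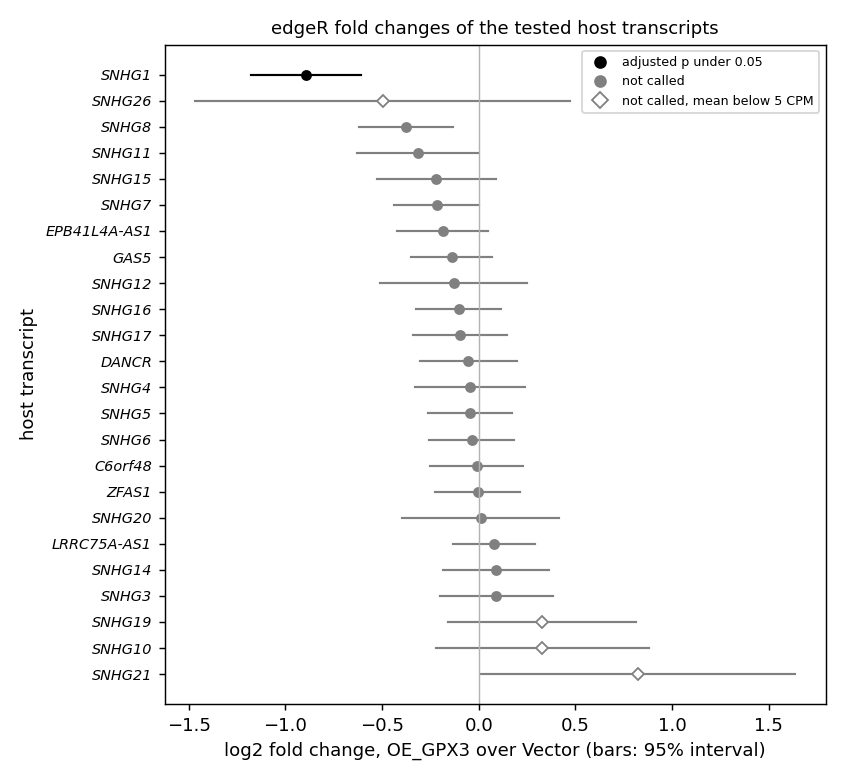
Log2 fold change, OE_GPX3 over Vector, of the 24 tested hosts with 95% intervals, ordered by value; the filled black point passed an adjusted p under 0.05, grey points did not, and open diamonds mark hosts below 5 CPM. SNHG1 lies at -0.89 with its interval clear of 0, and the other 19 hosts of at least 5 CPM lie from -0.38 to 0.09.

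The proteins that hold snoRNAs did not pass the test. Of the 4 box C/D proteins, 0 were called. The methyltransferase fibrillarin (FBL) had 354, 462 and 459 CPM in OE_GPX3 and 355, 369 and 404 CPM in Vector, and NOP58, which binds the guide, had 20.4, 27.9 and 20.6 CPM in OE_GPX3 and 28.6, 30.2 and 26.5 CPM in Vector. Both overlap between groups (log2 fold changes 0.18 and -0.31, adjusted p = 0.449 and 0.287, edgeR). Of the 4 box H/ACA proteins, 0 were called, and the pseudouridine synthase DKC1 had a log2 fold change of -0.08 (adjusted p = 0.753, edgeR). NHP2, which had the smallest p of the 4, had 108, 145 and 132 CPM in OE_GPX3 and 105, 110 and 115 CPM in Vector. Its groups overlap at OE_GPX3 replicate 1, and the log2 fold change of 0.22 did not pass (SE 0.11, adjusted p = 0.348, edgeR), though it did without that library (0.33, adjusted p = 0.0444). Of 10 assembly factors, among them RUVBL1, RUVBL2 and NOLC1, 0 were called, with log2 fold changes from -0.34 to 0.20.

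Of 18 nonsense-mediated decay factors 0 were called. A log2 fold change below 0 was found for 14 of them (77.8%, against 52.6% of all tested genes). Their median was -0.07, against -0.02 over all. UPF1, the helicase at the centre of the pathway, had 116, 112 and 123 CPM in OE_GPX3 and 94.9, 93.3 and 94.2 CPM in Vector. The groups are clearly apart, yet the log2 fold change of 0.31 did not pass over all genes (SE 0.10, adjusted p = 0.167, edgeR). UPF3B, which links UPF2 to the exon junction complex, had 4.04, 3.66 and 3.31 CPM in OE_GPX3 and 5.31, 5.86 and 4.77 CPM in Vector (log2 fold change -0.53, adjusted p = 0.241, edgeR), also without overlap.

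Of the 9 transcripts known as decay targets, GADD45A, a stress-induced regulator of growth arrest, fell: it had 45.6, 45.1 and 53.2 CPM in OE_GPX3 and 66.2, 90.0 and 76.8 CPM in Vector (log2 fold change -0.70, SE 0.12, adjusted p = 0.00237, edgeR). This call too was lost without Vector replicate 2 (-0.58, adjusted p = 0.181, edgeR) and without OE_GPX3 replicate 2 (-0.64, adjusted p = 0.0761, edgeR). Those settings called 4 and 1 genes over the whole table. The other 8 decay targets did not pass. ATF3, a stress-induced transcription factor, had 6.51, 8.74 and 12.5 CPM in OE_GPX3 and 15.9, 27.1 and 24.9 CPM in Vector, with a log2 fold change of -1.30 (adjusted p = 0.0517, edgeR) that passed under 9 of the 16 alternatives. DDIT3, which encodes CHOP, had 2.86, 4.96 and 5.45 CPM in OE_GPX3 and 7.34, 20.0 and 10.9 CPM in Vector, with a log2 fold change of -1.54 (adjusted p = 0.273, edgeR) that passed under 5 of them. All 3 had groups that do not overlap, and in each Vector replicate 2 was the highest library.

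Of 12 regulators of messages with a 5′ pyrimidine tract 0 were called. RPS6KB2, a ribosomal protein S6 kinase, had 76.3, 103 and 100 CPM in OE_GPX3 and 68.0, 75.9 and 82.3 CPM in Vector (log2 fold change 0.31, adjusted p = 0.231, edgeR). TSC1, which restrains the kinase mTOR, had 14.1, 11.6 and 11.7 CPM in OE_GPX3 and 16.6, 15.4 and 14.2 CPM in Vector (log2 fold change -0.31, adjusted p = 0.333, edgeR).

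Other genes with a snoRNA inside them gave a further reading of the hosts. Of 28 ribosomal protein genes of this kind 0 were called, and the median of their log2 fold changes was 0.04. Of 197 other protein-coding hosts 0 were called. At an unadjusted p under 0.05 there were 36 of them, 27 lower and 9 higher in OE_GPX3, where 14.6% of all tested genes were in either direction and 7.76% lower. Their median log2 fold change was -0.07. NFE2L2, the transcription factor of the antioxidant response, had 22.2, 25.2 and 21.2 CPM in OE_GPX3 and 31.8, 34.7 and 31.9 CPM in Vector. The groups are well apart, and the log2 fold change of -0.52 just missed the threshold (SE 0.12, adjusted p = 0.0517, edgeR) and passed it under 7 of the 16 alternatives, with adjusted p from 0.018 to 0.619.

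ZCCHC8, a subunit of a complex that targets nuclear RNA to the exosome, had 10.4, 10.5 and 11.7 CPM in OE_GPX3 and 14.2, 19.7 and 14.9 CPM in Vector (log2 fold change -0.58, adjusted p = 0.0791, edgeR). IARS, the cytosolic isoleucyl-tRNA synthetase, had 174, 155 and 183 CPM in OE_GPX3 and 206, 255 and 204 CPM in Vector (log2 fold change -0.38, adjusted p = 0.118, edgeR). In both the groups do not overlap and Vector replicate 2 is the highest library. Both were named for a small p, so the lack of overlap adds nothing to it. Of the 197 hosts, 26 had all OE_GPX3 libraries below Vector, where 9.9% of all tested genes did so. Vector replicate 2 was highest for 24.9% of the 197, 7.14% of the ribosomal protein hosts and 18.1% of all tested genes. Of 6 further non-coding hosts tested 0 were called.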

How the data were processed

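RNA from 3 OE_GPX3 and 3 Vector libraries of A549 cells was counted per gene. The authors deposited whole-number counts, unnormalized as far as the values show, and FPKM values, with gene lengths in bases. Each deposited FPKM is the gene's count over its length and over a constant of its library (largest relative deviation 5.11e-15), and those constants differ from the total counts by -4.52% to 4.90%. The build was hg38, per the submitters' processing notes. Which aligner and counter were used, and whether strand was, is not stated in these sources. The labels' protocol describes a small RNA library.

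From the counts, low genes were filtered out (filterByExpr, at least 10 counts and 15 in total), libraries were scaled by TMM and groups were compared two-sided with the robust quasi-likelihood test of edgeR. Benjamini-Hochberg adjustment ran over 14458 genes, called at an adjusted p under 0.05 (R 4.3.3, edgeR 4.0.16). CPM are counts per 1e+06 counts after TMM. The biological coefficient of variation was 0.110. Total counts of 15831693 to 18751815 per library set the counting precision. FPKM were used for levels between genes and were not tested. Gene models came from GENCODE release 29, where 58724 of 58735 genes in the table have the same position, and promoters from RefSeq. The fit was tested on simulated data that held no effect of single libraries or of GC content, so that test does not cover them.

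The members and the gene lists were chosen with earlier results of these data known. Named are tested members averaging at least 5 CPM, SNHG1 and GAS5, genes starting within 1000 bases of a named member on the other strand, and genes among the 4 of each list with the smallest p. Not every gene so chosen is printed, and 1 is not reported here. Members below 5 CPM, SNORA71C, ATF4, MAP3K14, TBL2, RUVBL1, RUVBL2 and NOLC1 were named beside these. Alternatives were other scalings, filters, DESeq2 1.42.0 on the same genes, a replicate block, each library left out and, added after the data were seen, a GC correction (loess, span 0.5).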

Additional observations from a re-analysis of the deposited data

How the results depend on the processing

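Of 383 values of single hosts under alternatives, 345 kept their direction and their side of the threshold, 3 lost the call (SNHG1, given above), 1 gained it (SNHG7) and 34 changed sign, none of the last past the threshold. Of 288 values of the other genes named with a fold change, 255 kept both, 2 lost the call (GADD45A, given above), 28 gained it and 3 changed sign. The gains were in ATF3, DDIT3, NFE2L2, ZCCHC8, IARS, UPF1, NHP2 and RPS6KB2. Genes called over the whole table numbered 38 (14 higher and 24 lower in OE_GPX3), 68 (13 and 55) with total counts alone, 52 (14 and 38) with upper-quartile scaling, 39 (18 and 21) with RLE size factors and 38 (17 and 21) with the scaling of the FPKM. They numbered 129 (51 and 78) without a filter, 116 (68 and 48) with DESeq2, 4 (2 and 2) with the GC correction, and 1 to 657 when each library was left out, with 1 without OE_GPX3 replicate 2 and 4 without Vector replicate 2. Hosts called numbered 1, and 0 to 1 with a library left out, 0 with the GC correction and 2 with that correction and the replicate block. Total counts alone moved the median of all genes to -0.08, against -0.02. The median of the tested hosts was -0.05, -0.11 with total counts alone, and -0.12 to -0.0046 with a library left out.

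The replicate numbers were not taken as pairs, since no label says that a number marks a shared culture or day. Deviations of same-numbered libraries correlated at 0.192, 0.0104 and 0.114, and those of differently numbered libraries at -0.151 to 0.0493. Whether the numbers mark a shared batch is not known. With the replicate block 231 genes were called (141 higher and 90 lower), and SNHG1 was at -0.87 (adjusted p = 0.00389, edgeR); with block and GC correction 34 genes were called.

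The sign changes, on the log2 scale, were as follows. SNHG5 was at 0.020 with the GC correction and 0.014 with the correction and the block, SNHG6 at 0.10 and 0.098, and SNHG4 at 0.083 and 0.081. With RLE, the FPKM scaling and DESeq2, in that order, ZFAS1 was at 0.0090, 0.0099 and 0.0090, and C6orf48 at 0.0049, 0.0057 and 0.0052. SNHG20 was at -0.053 with total counts, -0.017 with upper-quartile scaling and -0.015 with the GC correction. With a library left out, SNHG5 ran from -0.13 to 0.024, ZFAS1 from -0.11 to 0.091, SNHG6 from -0.14 to 0.036, SNHG17 from -0.21 to 0.015, C6orf48 from -0.086 to 0.11, SNHG4 from -0.12 to 0.020, SNHG12 from -0.25 to 0.011, SNHG20 from -0.16 to 0.16, SNHG3 from -0.015 to 0.19, LRRC75A-AS1 from -0.014 to 0.14, ZNFX1 from -0.21 to 0.0025 and ZBTB37 from -0.024 to 0.44. The cause was not tested.

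Depth limits the 4 tested hosts below 5 CPM, which had 6 to 73 counts per library. With 3 libraries in a group, 1 library carries much weight. Of the 30 symbols, 18 share exons with a gene other than a guide, and their counts are uncertain. For 15 the partner is on the opposite strand, where counting by strand would tell them apart, and 7 have a partner on the same strand, where it would not.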
